A study of Mus musculus with 3 samples.

Results

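Selenoproteins are proteins that carry selenocysteine, an amino acid in which selenium takes the place of the sulfur of cysteine. The 10 genes described here are Selenow, Selenop, Selenok, Selenof, Selenom, Gpx1, Gpx3, Gpx4, Txnrd1 and Txnrd2, taken as the rows of the deposited table that bear these symbols, and all 10 were found among its 57180 genes. They are part of the 24 mouse selenoprotein genes, and the other 14 are given as their background. The study profiled cells from the vestibule of mice, the part of the inner ear that senses balance, under the name black ball. It gave 3 libraries of 1 group, named replicates 1 to 3, and no control group. The labels describe the cells as wild-type macrophages and immune cells, whereas the series title speaks of melanocytes. The labels count 18 cells picked from 9 animals, 3 of them for each group. The sources used here do not say how cells or animals were divided over the libraries, nor how old the mice were. Transcripts were captured by their poly(A) tails with the SMART-Seq HT kit and amplified by PCR, and the p-values below reflect how these 3 libraries differ among themselves, a spread that may be technical.

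Selenocysteine is written into a protein at a UGA codon, which elsewhere ends translation. A hairpin in the untranslated tail of the messenger, the binding protein SECISBP2, the elongation factor EEFSEC and a dedicated transfer RNA together make the ribosome read it as an amino acid. Most selenoproteins of known activity catalyse redox reactions: glutathione peroxidases reduce hydrogen peroxide and lipid peroxides, and thioredoxin reductases keep thioredoxin reduced. In the inner ear this chemistry has been studied mainly in the cochlea, where mice that lack Gpx1 are more easily harmed by noise.

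The selenocysteine codon is what the members share, so the coding stretch around it is shown for each, from GENCODE M21 transcripts (build GRCm38). Each sequence runs 5′ to 3′ with up to 12 coding bases before the codon and up to 15 after it, and ends at the stop codon where that comes sooner. The capitals mark the selenocysteine codon, written TGA in DNA letters.
Selenow: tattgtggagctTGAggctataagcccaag
Selenom: acctgtggaggaTGAcagttgaatcgccta
Selenof: gaagtctgcggaTGAaaattggggaggttc
Selenok: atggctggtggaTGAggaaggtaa
Selenop: cttcaagccagcTGAtacttgtgtcttctg
Gpx1: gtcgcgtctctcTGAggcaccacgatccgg
Gpx3: gtagccagctacTGAggtctgacagaccaa
Gpx4: gtggcctcgcaaTGAggcaaaactgacgta
Txnrd1: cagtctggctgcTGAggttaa
Txnrd2: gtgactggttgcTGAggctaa

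The annotation marks such a codon in 24 genes, which are the 24 genes listed here. Of the members, 9 have 1 in-frame TGA codon, and Selenop, the carrier of selenium in plasma, has 10, of which the first is shown. In Txnrd1 and Txnrd2 it is the last codon but one of the coding sequence with its stop left out, codon 498 of 499 and codon 526 of 527, and in Selenok it is codon 92 of 94. In Selenow (codon 13 of 88), Gpx1 (47 of 201), Selenom (48 of 145), Gpx3 (73 of 226) and Gpx4 (73 of 197) it lies in the first part of the coding sequence. Within 4 codons before it, 5 of the 10 members hold a cysteine codon. This is 3 codons before in Selenow and Selenom, 2 in Selenof and directly before in both thioredoxin reductases, while none of the 3 glutathione peroxidases has one there.

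The libraries held 18460546, 15086854 and 14095521 counts in replicates 1, 2 and 3. As a check of the labels, all 12 macrophage markers and 8 of 10 melanocyte markers passed the test described next, with summed levels of 5755 to 8964 TPM and 573 to 703 TPM. Markers of other cells were present too. The fibrocyte and fibroblast list (7 of 8 passing) summed to 13043, 13254 and 9474 TPM, above the macrophage list in 3 of 3 libraries. The Schwann cell and glia list (6 of 8) was above it in replicates 2 and 3. Few genes carried these sums. S100b of the glia list stood at 8233, 6706 and 9456 TPM and Coch of the fibrocyte list at 10205, 9157 and 4653. Lyz2 of the macrophage list stood at 6490, 3513 and 3845 TPM. By the median of its genes the macrophage list was above both, at 126, 160 and 195 TPM. The fibrocyte list had medians of 53.6, 103 and 39.6 TPM and the glia list 53.6, 22.3 and 53.7. In addition, 8 of 8 hair cell markers and 5 of 7 erythroid markers passed, while 37.6% of all genes tested did. Every value sums over the cells of a library, so no transcript can be traced to a cell type, and fewer cells of a type and less RNA per cell cannot be told apart.

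Levels are given as TPM, the deposited FPKM (counts corrected for gene length and library total) after bringing every library to one common sum, as mean ± SD with n = 3. A gene was called above 1 TPM when limma's moderated test, one-sided, on log2(TPM + 1) gave a Benjamini-Hochberg adjusted p under 0.05 over 27265 genes. Of the members, 9 of 10 passed, while 37.6% of all genes tested did. For the 8 most abundant members limma's adjusted p lay between 1.3e-05 and 1.57e-05. The median over the members was 398, 357 and 382 TPM in replicates 1, 2 and 3, beside medians of 2.25, 1.77 and 1.99 TPM over all genes tested. Over the other 14 selenoproteins it was 9.44, 10.1 and 10.8 TPM, so the level of the members does not hold for the whole family. The 10 genes together took 0.706%, 0.661% and 0.708% of the counts, of which Gpx3 alone made up 39.8%, 30.9% and 34.4%.

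**Figure D1:**
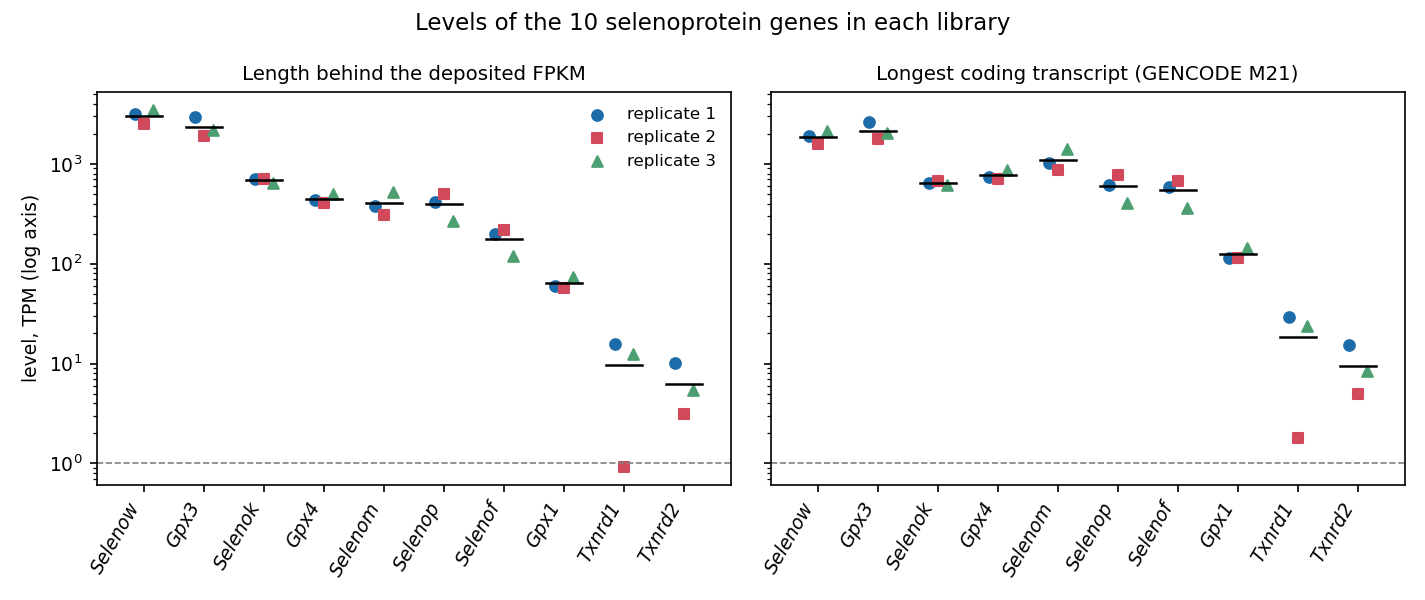
Level of each of the 10 selenoprotein genes in TPM (log axis), with 1 point per library and a black bar at the mean of 3 libraries. The left panel uses the length behind the deposited FPKM and the right panel the longest coding transcript of GENCODE M21. The dashed line marks 1 TPM, and Txnrd1 in replicate 2 is the point below it, at 0.924 TPM, in the left panel.

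The scale of these levels depends on gene length. The length implied by count and FPKM exceeded the longest coding transcript of GENCODE M21 by more than 1.5 times for 8 of the 10 members. For Gpx1 (3412 bp implied, 1441 bp of gene) and Selenom (3121 bp implied, 2668 bp of gene) it exceeded even the span of the gene itself. Levels were therefore also computed from the deposited counts and the longest coding transcript, an alternative chosen after seeing the data, and are called transcript-length TPM. With it, 10 of 10 members passed, while 40.1% of all genes tested did. Differences between libraries do not depend on this choice of length beyond a common factor per library.

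The small redox protein encoded by Selenow, which binds glutathione and is best known from muscle, had the highest member level in deposited-length TPM (chromosome 7, 15651133 to 15656327, GRCm39). Its counts were 17138, 12451 and 16948, or 3137, 2504 and 3479 TPM in replicates 1, 2 and 3, with a mean of 3040 ± 495 TPM. Replicate 3 was highest and replicate 2 lowest, and the gene ranked 39 among all genes of the table. Its implied length equals its single annotated transcript of 736 bp, so its transcript-length level of 1874 ± 294 TPM differs only through the rescaling of all other genes.

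The secreted peroxidase gene Gpx3, whose product is the main glutathione peroxidase of plasma, came next (chromosome 11, 54793279 to 54801203). It had the most counts of the members, 51873, 30780 and 34346, and stood at 2946, 1920 and 2188 TPM, mean 2351 ± 532. Selenow exceeded Gpx3 in 3 of 3 libraries, by 1.06, 1.30 and 1.59 times in replicates 1, 2 and 3. In transcript-length TPM the ratio was 0.716, 0.876 and 1.07, so Selenow was higher in 1 of 3 libraries and the order of this pair is not settled. Both genes stood above every other member in each library under both lengths.

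The other glutathione peroxidases were lower. Gpx4, which reduces lipid peroxides within membranes and guards against ferroptosis (chromosome 10, 79883000 to 79892273), stood at 434, 404 and 497 TPM, mean 445 ± 47.7. Its transcript-length level was 774 ± 83.4 TPM. Gpx1, the abundant cytosolic peroxidase of most cells (chromosome 9, 108216102 to 108217542), stood at 59.3, 57.7 and 73.4 TPM, mean 63.5 ± 8.65, and at 125 ± 17.5 in transcript-length TPM. Within each library Gpx3 exceeded Gpx4, and Gpx4 exceeded Gpx1 by 7.32, 7.0 and 6.77 times. With transcript lengths Gpx4 exceeded Gpx1 by 6.48, 6.20 and 6.0 times. Gpx1 overlaps the long non-coding RNA gene Gm57050 over 84.0% of its span, and that gene held 1112, 1048 and 927 counts beside 1502, 1330 and 1658 for Gpx1. The sources used here do not say whether strand was used in counting, so the split between the 2 genes is uncertain. Red cells carry much GPX1 protein. Of the 7 erythroid markers 5 were highest in replicate 3, and their summed level was 21791 TPM in replicate 1, 29998 in replicate 2 and 51507 in replicate 3, where Gpx1 was also highest. Its part in the Gpx1 level was not tested.

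For Gpx4 the largest uncertainty comes from a near copy. The processed pseudogene Gpx4-ps2, annotated as transcribed (chromosome 10, 45751387 to 45751941), held 30186, 26378 and 29976 counts, against 9037, 7653 and 9232 for Gpx4. The ratio of the 2 counts hardly varied, at 3.34, 3.45 and 3.25 in replicates 1, 2 and 3. In deposited-length TPM the pseudogene stood at 7507 ± 584, above every member. Its 555-base transcript in GENCODE M21 aligned with Gpx4 over all its length with 2 mismatches. Of the windows of 100 bases in it, 61.4% occur letter for letter in the Gpx4 transcript. A second transcript of 782 bases aligned over 97.4% of its length, also with 2 mismatches. The 30 bases around the selenocysteine codon, given here for each copy, are the same in Gpx4 and Gpx4-ps2.
Gpx4: gtggcctcgcaaTGAggcaaaactgacgta
Gpx4-ps2: gtggcctcgcaaTGAggcaaaactgacgta
Gpx4-ps1: gtggcctcgcaaTGAggcaaaaccgatgta

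A read from these shared windows fits both places, and the sources used here do not say how such reads were assigned. The second pseudogene, Gpx4-ps1 on chromosome 17, differs from Gpx4 in this stretch at T24C and C27T, counted from 1 at the 5′ end of the 30 bases with the Gpx4 base first. It held 141, 129 and 204 counts. With the counts of both pseudogenes added and the transcript length kept, Gpx4 would stand at 3220, 3186 and 3711 TPM, the highest of the 10 members in the mean. Selenok has 6 named pseudogenes in the table, which together amounted to 1.80%, 1.94% and 2.60% of its own counts.

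**Figure D2:**
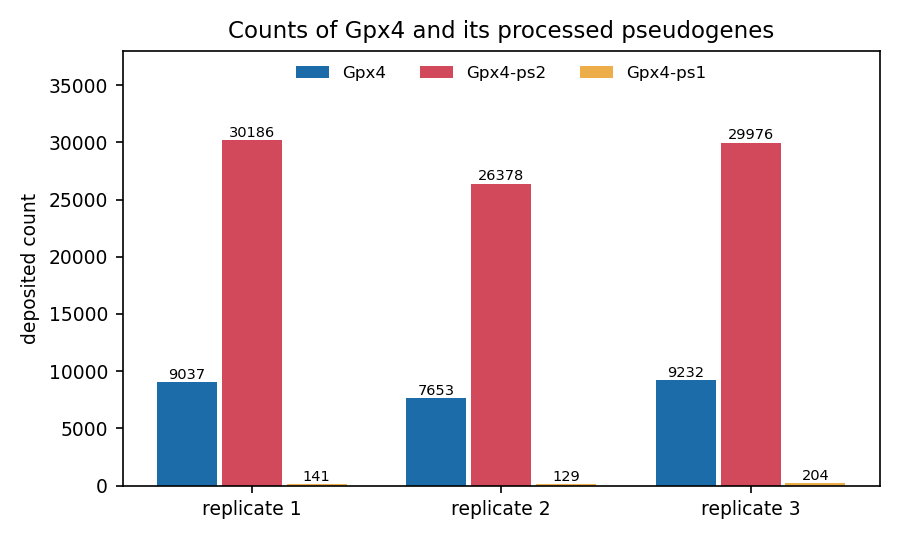
Deposited counts (linear axis from 0) of Gpx4 and of its processed pseudogenes Gpx4-ps2 and Gpx4-ps1, with 1 bar per gene and library and the count above each bar. Gpx4-ps2 holds over 3 times the count of Gpx4 in each library.

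The members whose proteins reside in the endoplasmic reticulum, where secreted proteins fold, were all called above 1 TPM, beside 37.6% of all genes tested. Selenok encodes a membrane protein that works with the palmitoyltransferase DHHC6 and is known for its role in calcium signals of immune cells (chromosome 14, 29690265 to 29697619). It stood at 705, 705 and 645 TPM, mean 685 ± 34.9. In TPM this was the smallest spread of the 10 members, with an SD of 0.07 on the log2(TPM + 1) scale. With DESeq2 scaling the highest library exceeded the lowest by 1.24 times for Selenok and by 1.23 times for Selenow. Selenom, a thioredoxin-like protein (chromosome 11, 3464684 to 3467351), stood at 382, 310 and 518 TPM, mean 403 ± 105, and was highest in replicate 3. Selenof, a partner of the glycoprotein folding sensor UGGT1 (chromosome 3, 144276065 to 144303441), stood at 198, 219 and 118 TPM, mean 178 ± 53.3, and was lowest in replicate 3. Selenom exceeded Selenof in 3 of 3 libraries under both lengths. In transcript-length TPM the means were 643 ± 32.5 for Selenok, 1098 ± 287 for Selenom and 545 ± 164 for Selenof. Selenof moved most with the length, since its implied length of 7502 bp compares with a longest coding transcript of 1514 bp.

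Selenop, which carries selenium from liver to other organs in plasma and is also made in many tissues (chromosome 15, 3298029 to 3309990), stood at 415, 505 and 266 TPM, mean 395 ± 120, and at 599 ± 186 in transcript-length TPM. Like Selenof it was highest in replicate 2 and lowest in replicate 3. The log2 difference between Selenop and Selenof had a mean of 1.14 in deposited-length TPM, with an SD of 0.07 over the 3 libraries. With transcript lengths this difference was 0.06, 0.19 and 0.16. For Gpx4 and Gpx1 the SD of the log2 difference in deposited-length TPM was smaller, at 0.05.

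The thioredoxin reductases were the least abundant members and varied most. Txnrd1 encodes the cytosolic enzyme (chromosome 10, 82669785 to 82733546). Its counts were 1316, 70 and 927, or 15.8, 0.924 and 12.5 TPM in replicates 1, 2 and 3, mean 9.74 ± 7.81. Replicate 2 stood apart: in CPM (counts scaled to one library total), replicates 1 and 3 exceeded it by 15.4 and 14.2 times and differed from each other by 1.08 times. Txnrd1 did not pass limma's test against 1 TPM (adjusted p = 0.0505, log2(TPM + 1) of 2.92 ± 1.72, n = 3). It passed without replicate 2 (limma, adjusted p = 2.92e-06) and in transcript-length TPM (adjusted p = 0.019), where its mean was 18.4 ± 14.7. Over all alternatives that kept every library, its adjusted p lay on both sides of the threshold.

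Txnrd2, the mitochondrial enzyme (chromosome 16, 18245134 to 18297823), had 538, 152 and 258 counts and stood at 10.0, 3.11 and 5.38 TPM, mean 6.16 ± 3.52. It was lowest in replicate 2 as well, and passed limma's test with all libraries (adjusted p = 0.0123, higher than 1 TPM in 3 of 3) but not without replicate 1 (adjusted p = 0.0888). Txnrd1 exceeded Txnrd2 by 1.58 and 2.32 times in replicates 1 and 3 and stood at 0.297 times it in replicate 2. Their order therefore differed between libraries. In TPM, 7 of 8 neutrophil markers were highest in replicate 2 (summed level 20.2, 416 and 144 TPM). Only 3 of these 8 passed the test against 1 TPM, and S100a8 and S100a9 stood at 159 and 135 TPM in replicate 2. In that library 8 of 8 Schwann cell and glia markers were lowest (8592, 6842 and 9747 TPM). Of the 12 macrophage markers, 7 were lowest in replicate 1 and 3 in replicate 2, with summed levels of 8964, 5755 and 6539 TPM. The hair cell and neuron lists each had 5 of 8 markers lowest in replicate 2. The part of these cells in the thioredoxin reductase levels was not tested. Among the 2976 genes with at least 50 CPM in replicates 1 and 3, 7 genes, or 0.235%, were at least 10 times higher in both than in replicate 2, a comparison made after the values of Txnrd1 were seen.

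**Figure D3:**
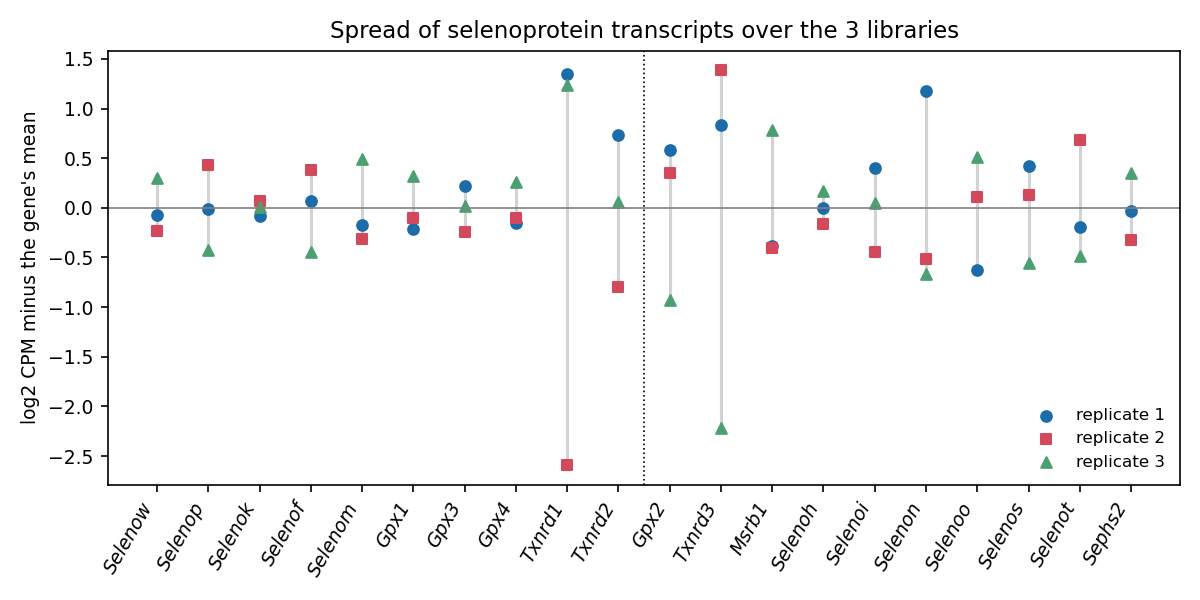
Log2 CPM of each library minus the gene's own mean over 3 libraries, for the 10 members (left of the dotted line) and for 10 other selenoproteins that have more than 1 count in each library and a mean above 1 TPM (right). The grey bar spans the 3 libraries. Txnrd1 in replicate 2 and Txnrd3 in replicate 3 lie farthest from 0.

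Across libraries, 8 of 10 members differed by less than 2 times between their highest and lowest CPM, as did 54.7% of the 6690 genes with a mean of at least 10 TPM. With TMM or DESeq2 scaling it was 6 of 10, beside 55.8% and 55.6% of those genes, since Selenop (2.11 and 2.14 times) and Selenof (2.07 and 2.10 times) then passed 2 times. The members' SD on the log2(TPM + 1) scale had a median of 0.34, beside 0.48 over the same 6690 genes. Those genes were not matched to the members by level, and Txnrd1 (9.74 TPM) and Txnrd2 (6.16 TPM) fall below their limit of 10 TPM. The library in which a member was highest was the same under total, TMM, DESeq2 and TPM scaling for 9 of 10 members, all but Selenok, and the lowest was the same for 6 of 10. Selenow, Selenom, Gpx1 and Gpx4 were highest in replicate 3, Selenop and Selenof in replicate 2, and Gpx3, Txnrd1 and Txnrd2 in replicate 1. Because the design has a single group, no condition can be compared.

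The order of the levels was compared over all 45 pairs of members. In deposited-length TPM it ran Selenow, Gpx3, Selenok, Gpx4, Selenom, Selenop, Selenof, Gpx1, Txnrd1, Txnrd2, and 41 of 45 pairs kept their order in 3 of 3 libraries. An exact sign-flip permutation test, two-sided, gave p = 0.25 for these pairs, the smallest that 3 libraries allow, and an adjusted p of 0.274 over the 45 pairs, so no pair could pass 0.05. The 4 pairs that changed order lay among Gpx4, Selenom and Selenop, and between Txnrd1 and Txnrd2. With transcript lengths the order ran Gpx3, Selenow, Selenom, Gpx4, Selenok, Selenop, Selenof, Gpx1, Txnrd1, Txnrd2. There 40 of 45 pairs kept their order in 3 of 3 libraries, and 41 had the same direction as before. The step from Selenof to Gpx1 and that from Gpx1 to Txnrd1 held in 3 of 3 libraries under both lengths.

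Of the other 14 selenoproteins, 9 stood above 1 TPM, beside 37.6% of all genes tested. Gpx2, the peroxidase of epithelia (1018, 779 and 306 TPM), was highest, with 31538, 21967 and 8454 counts. In deposited-length TPM it exceeded Gpx4 in replicates 1 and 2 and was below it in replicate 3. In transcript-length TPM Gpx3 exceeded it in 2 of 3 libraries. Gpx2 was highest in replicate 1 and lowest in replicate 3. In TPM, 8 of 8 markers of supporting and non-sensory epithelium were highest in replicate 1 and 5 lowest in replicate 3 (summed level 2603, 1774 and 1829 TPM). In CPM, Gjb2 of this list was highest in replicate 3 (724, 482 and 777). The part of these cells in the Gpx2 level was not tested. A processed pseudogene, Gpx2-ps1, held a further 6.65%, 6.41% and 7.20% of the Gpx2 count.

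Proteins of the endoplasmic reticulum followed. Selenos, which joins the removal of misfolded proteins from that compartment, stood at 184 ± 72.3 TPM and Selenot, a thioredoxin-like membrane protein, at 79.1 ± 34.6. Selenok exceeded Selenos in 3 of 3 libraries under both lengths. Selenon, a calcium-related protein whose loss causes muscle disease, stood at 23.8, 6.62 and 5.68 TPM, highest in replicate 1.

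The remaining ones that passed were Sephs2 (27.2 ± 5.62 TPM), the enzyme that makes selenophosphate and itself a selenoprotein, Selenoh of the nucleolus (26.3 ± 3.05), Selenoo of mitochondria (12.6 ± 3.83), the methionine sulfoxide reductase Msrb1 (10.4 ± 4.69) and Txnrd3. Txnrd3, the thioredoxin reductase best known from testis, stood at 10.3, 13.5 and 1.07 TPM, so it was lowest in replicate 3, not in replicate 2. Its call in limma's test (adjusted p = 0.0476) ended without replicate 1 (adjusted p = 0.186), without replicate 2 (0.122) and in transcript-length TPM (0.109). It also ended with a pseudocount of 5 (0.0702), with no filter on low counts (0.371) and with no variance trend (0.0728).

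The 5 that did not pass were the testis gene Selenov (0.964 ± 0.557 TPM), the phospholipid enzyme Selenoi (1.79 ± 0.627) and the 3 deiodinases, which activate or inactivate thyroid hormone. Dio2 had 36, 11 and 50 counts. Dio1 had 1 count, in replicate 2, and Dio3 had 1 count, in replicate 3, below the floor of 3 counts per library that a count of 0 allows (0.163 to 0.213 CPM, counting error only).

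The genes that make and insert selenocysteine were lower than most of the members. Of 11 genes of synthesis, insertion and selenium supply, 7 stood above 1 TPM, beside 37.6% of all genes tested. The median over the list was 7.13 TPM. Trnau1ap, a protein bound to the selenocysteine transfer RNA, led at 79.9, 34.0 and 45.5 TPM. Sars, the seryl-tRNA synthetase that charges this transfer RNA first with serine, stood at 67.8, 13.4 and 47.9 TPM, lowest in replicate 2. The kinase Pstk (4.86 ± 0.674 TPM), Sephs1 (8.52 ± 2.44), the elongation factor Eefsec (7.13 ± 3.70) and Secisbp2l (17.6 ± 1.79), a relative of the binding protein, also passed. The binding protein gene itself, Secisbp2, stood at 2.28, 3.26 and 5.02 TPM and did not pass (limma, adjusted p = 0.0513), but did in transcript-length TPM (adjusted p = 0.0444).

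Sepsecs, the enzyme that completes selenocysteine on the transfer RNA, did not pass at 0.737, 5.14 and 0.987 TPM, and was highest in replicate 2. Scly, a lyase that frees selenium from selenocysteine, stood at 1.65, 4.03 and 2.62 TPM and did not pass (limma, adjusted p = 0.119), but did in transcript-length TPM (adjusted p = 0.0247). Of the receptors that take up selenoprotein P, Lrp2, or megalin, an endocytic receptor of epithelia, stood at 4.91, 11.7 and 22.8 TPM and passed. Lrp8, the receptor of brain and testis, did not, at 0.309 ± 0.113 TPM.

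**Figure D4:**
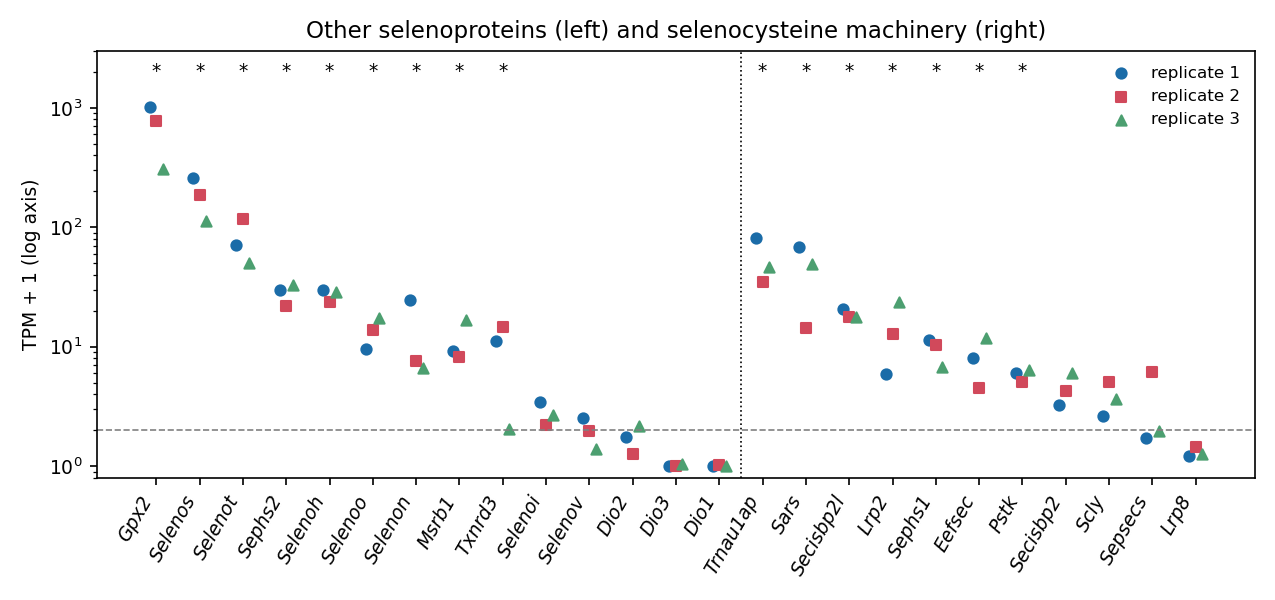
TPM + 1 (log axis) in each library for the other 14 selenoproteins (left of the dotted line) and for 11 genes of selenocysteine synthesis, insertion and selenium supply (right), each ordered by mean. Asterisks mark genes above 1 TPM in limma's test, and the dashed line is 1 TPM. Gpx2 leads the left part at 306 to 1018 TPM and Trnau1ap the right part at 34.0 to 79.9 TPM.

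The partners of the thioredoxin reductases were abundant. All 15 genes of the thioredoxin list stood above 1 TPM, beside 37.6% of all genes tested, with a median of 150 TPM over the list. Prdx1, a peroxiredoxin that thioredoxin reduces, led at 1346, 1817 and 621 TPM, followed by thioredoxin Txn1 at 595 ± 112, the mitochondrial Prdx3 at 430 ± 201 and Prdx5 at 384 ± 79.8. In replicate 2, where Txnrd1 had 70 counts, Prdx1 was highest and Txn1 stood at 559 TPM, between the other libraries. The mitochondrial thioredoxin Txn2 stood at 68.0 ± 6.53 TPM.

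Of the 8 genes of glutathione supply, 7 passed, beside 37.6% of all genes tested. Slc3a2 (77.1 ± 25.3 TPM) and Slc7a11 (35.6 ± 4.03) form the cystine importer, and G6pdx (61.1 ± 40.6) supplies NADPH. Gclc, which makes the precursor of glutathione, stood at 43.4, 34.0 and 15.9 TPM. The glutathione reductase Gsr was at 43.4, 24.7 and 13.2 TPM. Of the 4 glutathione peroxidases that use cysteine in place of selenocysteine, Gpx8 (263 ± 102 TPM) and Gpx7 (53.3 ± 12.9), both of the endoplasmic reticulum, passed. Gpx6 (1.81, 5.70 and 0.352 TPM) did not, and Gpx5 had no count.

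Among the 8 partner genes of the endoplasmic reticulum, 5 passed, beside 37.6% of all genes tested. They were led by Derl1 (69.6 ± 2.62 TPM) and Vcp (64.6 ± 20.5), which act with SELENOS in the removal of misfolded proteins. Derl2 (13.0 ± 3.72), a relative of Derl1, passed too. Zdhhc6, the gene of the palmitoyltransferase that works with the Selenok product, stood at 8.01, 9.80 and 4.51 TPM and passed. The Selenof partner Uggt1 (0.633, 1.72 and 3.03 TPM) did not pass. Of 7 genes of lipid peroxidation, 3 passed, near the 37.6% share of all genes tested. These were Acsl4 (12.4 ± 6.73 TPM), which loads membranes with oxidisable fatty acids, and the transferrin receptor Tfrc (8.22 ± 3.23). The third was Aifm2 (6.92 ± 3.14), which protects membranes apart from Gpx4. Lpcat3 (4.42, 9.20 and 0.715 TPM) passed only once replicate 3 was left out, in CPM or with transcript lengths (limma, adjusted p = 0.00509, 0.0178 and 0.0486).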

How the data were processed

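Raw counts and FPKM values per gene were deposited by the authors, as the columns of each library are headed. The submitters' processing notes name HISAT2, StringTie, edgeR and build GRCm39, without roles. The sources used here do not give the counter, the treatment of reads that fit several genes or the use of strand. The deposited FPKM equals the count divided by a fixed length and the column total. That length matched the single transcript of GENCODE M21 within 1% for 95.5% of 10290 genes with 1 transcript, and had a median of 2.01 times the longest coding transcript for 15683 genes with several, so TPM from FPKM understates genes with many transcripts.

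TPM, CPM and limma 3.58.1 tests (intercept only, variance trend, pseudocount 1) were computed over the 27265 genes counted in 1 library or more, in R 4.3.3, and tested on simulated data. TMM factors came from edgeR 4.0.16 and size factors from DESeq2 1.42.0. Pseudogenes were aligned with Biopython 1.88. The members and gene lists were chosen with earlier results of these data known. All members, other selenoproteins and machinery genes were to be named, with the 4 most abundant of each partner list and any list gene whose call changes. Txn2, Gsr, Alox5, Alox15, Ggt1, the pseudogenes and the overlapping genes fall outside that rule and were named after their values were seen. Some genes that this rule or an overlap would name are not reported here. Sars1 is listed as Sars, which was taken up once the table was seen. Alternatives were other pseudocounts, filters, scalings and lengths, no variance trend, and each library left out. Depth of 14095521 to 18460546 counts per library limits counting error, while few cells and PCR without molecular identifiers add spread that depth does not reduce.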

Additional observations from a re-analysis of the deposited data

How the results depend on the processing

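No paired analysis was possible because the labels give 1 group. The number of members above 1 TPM was 8 to 10 under every alternative, with 8 without replicate 1 and 10 without replicate 2. Txnrd1 passed under 7 alternatives, and Txnrd2 did not pass with no filter (limma, adjusted p = 0.126). For the other selenoproteins it was 7 to 10 of 14. The machinery list had 7 of 11 above, 4 with no filter on low counts, 9 with the longest coding transcript and 10 in CPM without length. The lipid peroxidation list had 3 of 7 above, 1 with no filter and 5 in CPM without length. With no filter, 57180 genes entered the test in place of 27265. The share of all genes also moved with the setting. Of all genes tested, 37.6% passed in the main test, 40.1% with the longest coding transcript and 43.4% in CPM without length. This share is not given here for the other alternatives. The median over the members was 379 TPM and moved to 612 with the longest coding transcript, which shortens most of their lengths. Between 37 and 43 of 45 pairs of members kept their order in every library used. Of 60 list genes followed, 13 lost their call under at least 1 alternative and 8 gained one. With no filter 12 lost it, namely Txnrd2, Txnrd3, Selenon, Eefsec, Sars, Lrp2, Glrx, Msra, Gss, Zdhhc6, Acsl4 and Aifm2. Without replicate 1 it was lost by 5, namely Txnrd2, Txnrd3, Pstk, Gss and Aifm2. Gss also lost it without replicate 3 and with a pseudocount of 5. In CPM without length 8 gained it, namely Txnrd1, Selenoi, Secisbp2, Sepsecs, Scly, Uggt1, Alox12 and Lpcat3. The causes of these changes were not tested.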

Other observations

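Some list genes were counted in a single library. The lipoxygenases Alox5 and Alox15, which oxidise fatty acids in leukocytes, had 44 and 58 counts in replicate 3 and none in replicates 1 and 2, and Ggt1, an enzyme that breaks down glutathione, had 8 counts in replicate 3 alone. Of the 15 genes of the thioredoxin list, 10 had their lowest CPM in replicate 3, as did 5 of the 8 glutathione supply genes and 2 of the 10 members. The share of all genes lowest in replicate 3 is not given here.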
